A study of Mus musculus with 4 samples.

Results

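The 10 genes described here, Klf2, Klf3, Klf4, Klf5, Klf6, Klf7, Klf9, Klf10, Klf13 and Klf15, encode Krüppel-like transcription factors. They were taken by name from 18193 genes that had probe sets annotated with a single gene symbol, and every probe set of each gene was included, 34 in all. Of these, 28 passed a filter on dim values, and they represented 9 of the 10 genes, all but Klf15. The arrays were hybridised with RNA of cultured palatal mesenchymal cells, which form the connective tissue of the developing palate, established from mouse embryos of embryonic day 14 with an outbred wild-type genotype. One culture received 5Z-7-oxozeaenol (oxozeaenol below), an inhibitor of the Tak1 kinase, for 60 minutes and then TGF-beta2 for 120 minutes. A second received SB431542, an inhibitor of the TGF-beta type I receptor kinase, on the same schedule. Another received TGF-beta2 alone for 120 minutes, and the fourth was untreated. Each condition was 1 array from 1 culture, so every difference below lies between single arrays, has no replicate check and carries no p-value. Inhibitor doses, and how many embryos a culture came from, were left unstated in the labels, and no array received an inhibitor without TGF-beta2.

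Krüppel-like factors share a run of zinc fingers at the carboxy terminus that binds GC-rich and CACCC sequences, and differ in the rest of the protein. One branch, with Klf2, Klf4, Klf5, Klf6 and Klf7, binds acetyltransferases and often activates transcription, although several of its members also repress. Klf3 belongs to a branch that recruits the CtBP corepressors, and Klf9, Klf10 and Klf13 to a branch that binds the Sin3A corepressor. Klf10 was first described in human osteoblasts as a TGF-beta-inducible early gene, and several other family members are early response genes of growth factor and MAP kinase signalling.

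The most visible difference among these genes was on the oxozeaenol array. Klf2, Klf4, Klf6 and Klf13 were each at least 2-fold lower with oxozeaenol and TGF-beta2 than with TGF-beta2 alone, and none was at least 2-fold higher. That is 4 of 9 measured genes, where 2.17% of all 11744 measured genes were at least 2-fold lower and 1.82% at least 2-fold higher. The members were chosen with earlier results of these data known, so this contrast with all genes is a description and not a test. With TGF-beta2 alone over untreated, 0 of the 9 were 2-fold higher and 0 were 2-fold lower, where 0.673% and 0.366% of all genes were. With SB431542 over TGF-beta2 alone, 0 of the 9 were 2-fold higher or lower, where 0.613% of all genes were higher and 1.18% lower. Differences are between log2(signal + 21.7) values, where signal is the deposited intensity of a probe set and 21.7 is a pseudocount, and the brightest probe set stands for its gene. On this scale the difference of a dim gene is understated. The median log2 difference of the 9 genes was −0.60 with oxozeaenol over TGF-beta2, 0.02 with SB431542 over TGF-beta2 and 0.16 with TGF-beta2 over untreated. The medians of all genes for the same comparisons were 0.05, 0.03 and −0.03. In a culture of mixed cells, fewer cells of a type and less RNA per cell cannot be told apart.

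The 4 genes at least 2-fold lower with oxozeaenol than with TGF-beta2 alone are shown here by the 250 bases before their annotated start, since they passed that size rule. The sequences are from RefSeq, build GRCm38.p6, and run 5′ to 3′ on the strand of the gene. Capitals mark 3 kinds of sequence, each sought on both strands. They are the GC box, spelled GGGCGG, the sequence of a MEF2-type site, found in Klf2 as CTAAATTTAG and sought with its middle bases free, and the box with the letters CACCC that gives the family one of its binding sites.
Klf2, chr8:72318812-72319061, plus strand: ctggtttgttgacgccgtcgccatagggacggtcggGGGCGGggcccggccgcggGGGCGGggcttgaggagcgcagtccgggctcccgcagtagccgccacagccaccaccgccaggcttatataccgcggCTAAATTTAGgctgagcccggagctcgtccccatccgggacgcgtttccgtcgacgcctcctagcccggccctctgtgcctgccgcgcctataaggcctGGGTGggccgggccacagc
Klf4, chr4:55532476-55532725, minus strand: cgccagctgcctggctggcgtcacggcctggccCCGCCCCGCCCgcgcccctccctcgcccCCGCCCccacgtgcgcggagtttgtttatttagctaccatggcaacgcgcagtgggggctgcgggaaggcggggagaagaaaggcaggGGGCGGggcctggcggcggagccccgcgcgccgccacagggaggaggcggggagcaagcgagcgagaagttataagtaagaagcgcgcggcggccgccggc
Klf6, chr13:5861239-5861488, plus strand: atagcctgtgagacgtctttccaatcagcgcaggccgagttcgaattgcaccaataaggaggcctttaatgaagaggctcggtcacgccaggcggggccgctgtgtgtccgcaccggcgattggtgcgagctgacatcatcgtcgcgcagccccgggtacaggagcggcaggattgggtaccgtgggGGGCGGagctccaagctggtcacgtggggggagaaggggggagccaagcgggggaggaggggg
Klf13, chr7:63938916-63939165, minus strand: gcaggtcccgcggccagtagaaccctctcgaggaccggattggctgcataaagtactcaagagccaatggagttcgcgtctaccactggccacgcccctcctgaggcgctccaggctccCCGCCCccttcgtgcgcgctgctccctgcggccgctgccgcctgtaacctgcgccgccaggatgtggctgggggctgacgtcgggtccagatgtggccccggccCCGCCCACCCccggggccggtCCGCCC

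All 4 windows held a GC box, the kind of sequence the family's own proteins bind. Windows were found for 8 of the 10 genes, without Klf5 and Klf10, and 7 of the 8 held a GC box, against 32.7% of 32851 windows of the same length in the table. The 8 windows were 59.2% to 78.4% G and C, against a median of 52.4%. A CACCC box lay in 6 of the 8 and in 52.0% of all windows. The sequence bound by Egr factors (GCGNGGGCG), which can overlap a GC box, lay in 4 of the 8, those of Klf2, Klf3, Klf4 and Klf15, and in 4.70% of all windows. Klf2 was the 1 gene of the 8 with a MEF2-type sequence, 118 to 109 bases before its start, where 3.20% of all windows held one. An E-box (CACGTG) lay in the windows of Klf4, Klf6 and Klf15 and in 6.02% of all windows. The AP-1 site was sought as TGANTCA, a loose form with its middle base free. It lay in the window of Klf9, as TGAATCA, and in 6.75% of all windows. TGACGTCA (a cAMP response element), GTCTAGAC (a Smad element), the CArG box of serum response factor and the NF-kappaB consensus had no match in the 8 windows. They matched 1.55%, 0.167%, 1.47% and 7.25% of all windows. The shorter cores of the first pair did match. TGACG, which also lies within TGACGTCA, matched 5 of the 8 windows and 17.8% of all. GTCTG matched 2 of the 8, a smaller share than the 42.2% of all windows. A match is a run of letters and shows no binding.

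Among the branch that binds acetyltransferases, Klf2, which restrains inflammatory activation in endothelium, T cells and macrophages, showed the largest difference. Its signal was 150 on the oxozeaenol array, against 863 with SB431542 and TGF-beta2, 740 with TGF-beta2 alone and 625 untreated. The oxozeaenol array was the low one and the other arrays lay within 1.37-fold of each other. With oxozeaenol Klf2 was 4.43-fold lower than with TGF-beta2 alone, rank 42 from the lowest of 11744 genes, and 3.76-fold lower than untreated. With TGF-beta2 over untreated it was 1.18-fold higher. Klf2 had 1 probe set, so no second reading of the gene was available.

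Klf4, which builds the epidermal barrier, serves as a pluripotency factor and shapes macrophage polarisation, was read by 2 probe sets annotated with 1 sequence record. The brighter gave 2317 with oxozeaenol, against 4832 with SB431542, 4771 with TGF-beta2 alone and 5404 untreated. The other gave 945, 2745, 2509 and 2544 in the same order. On both, oxozeaenol was the low array and the other arrays lay close together. With oxozeaenol over TGF-beta2 alone the log2 differences were −1.04 and −1.39, and over untreated they were −1.21 and −1.41. With TGF-beta2 over untreated they were −0.18 and −0.02.

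Klf6, an early response gene of macrophages and of liver stellate cells and a growth-restraining factor, had 5 probe sets past the filter, from 4 sequence records. The brightest read 2294 with oxozeaenol, 3617 with SB431542, 4622 with TGF-beta2 alone and 4008 untreated. Oxozeaenol gave the lowest and TGF-beta2 alone the highest value on it. With oxozeaenol over TGF-beta2 alone, the 5 probe sets ranged from −1.24 to −0.86 in log2, and 3 of the 5 were at least 2-fold lower. The brightest sat on the threshold at 2.01-fold lower. Its log2 difference was −0.99 with a larger pseudocount and with quantile normalization, so the call of Klf6 as 2-fold lower rests on the setting, although its direction was the same on all 5 probe sets. With SB431542 over TGF-beta2 alone the 5 ranged from −0.50 to −0.07, and with TGF-beta2 over untreated from 0.08 to 0.32.

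Klf7, known best for its part in neuronal outgrowth, read 688 with oxozeaenol, 1115 with SB431542, 1058 with TGF-beta2 alone and 959 untreated on its brightest probe set. All 4 of its probe sets, annotated with 1 record, were lower with oxozeaenol than with TGF-beta2 alone, by −1.40 to −0.13 in log2. One dimmer probe set stood apart from the others, with 234 with oxozeaenol, 512 with SB431542, 656 with TGF-beta2 alone and 355 untreated. It was 0.85 higher in log2 with TGF-beta2 over untreated, where the other 3 ranged from −0.43 to 0.14. The probe sets of Klf7 therefore did not give 1 direction for TGF-beta2 itself.

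Klf5, a proliferation factor of basal epithelium and of smooth muscle, read 242 with oxozeaenol, 184 with SB431542, 161 with TGF-beta2 alone and 204 untreated. Its second probe set past the filter read 52.6, 107, 57.2 and 71.8 in the same order. The first was highest and the second lowest with oxozeaenol. One further probe set, at 6.38 to 34.5, did not pass the filter. Both were somewhat lower with TGF-beta2 than untreated, at −0.30 and −0.24 in log2. With oxozeaenol over TGF-beta2 alone they gave 0.52 and −0.09, so no direction is given for Klf5 in that comparison.

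**Figure D1:**
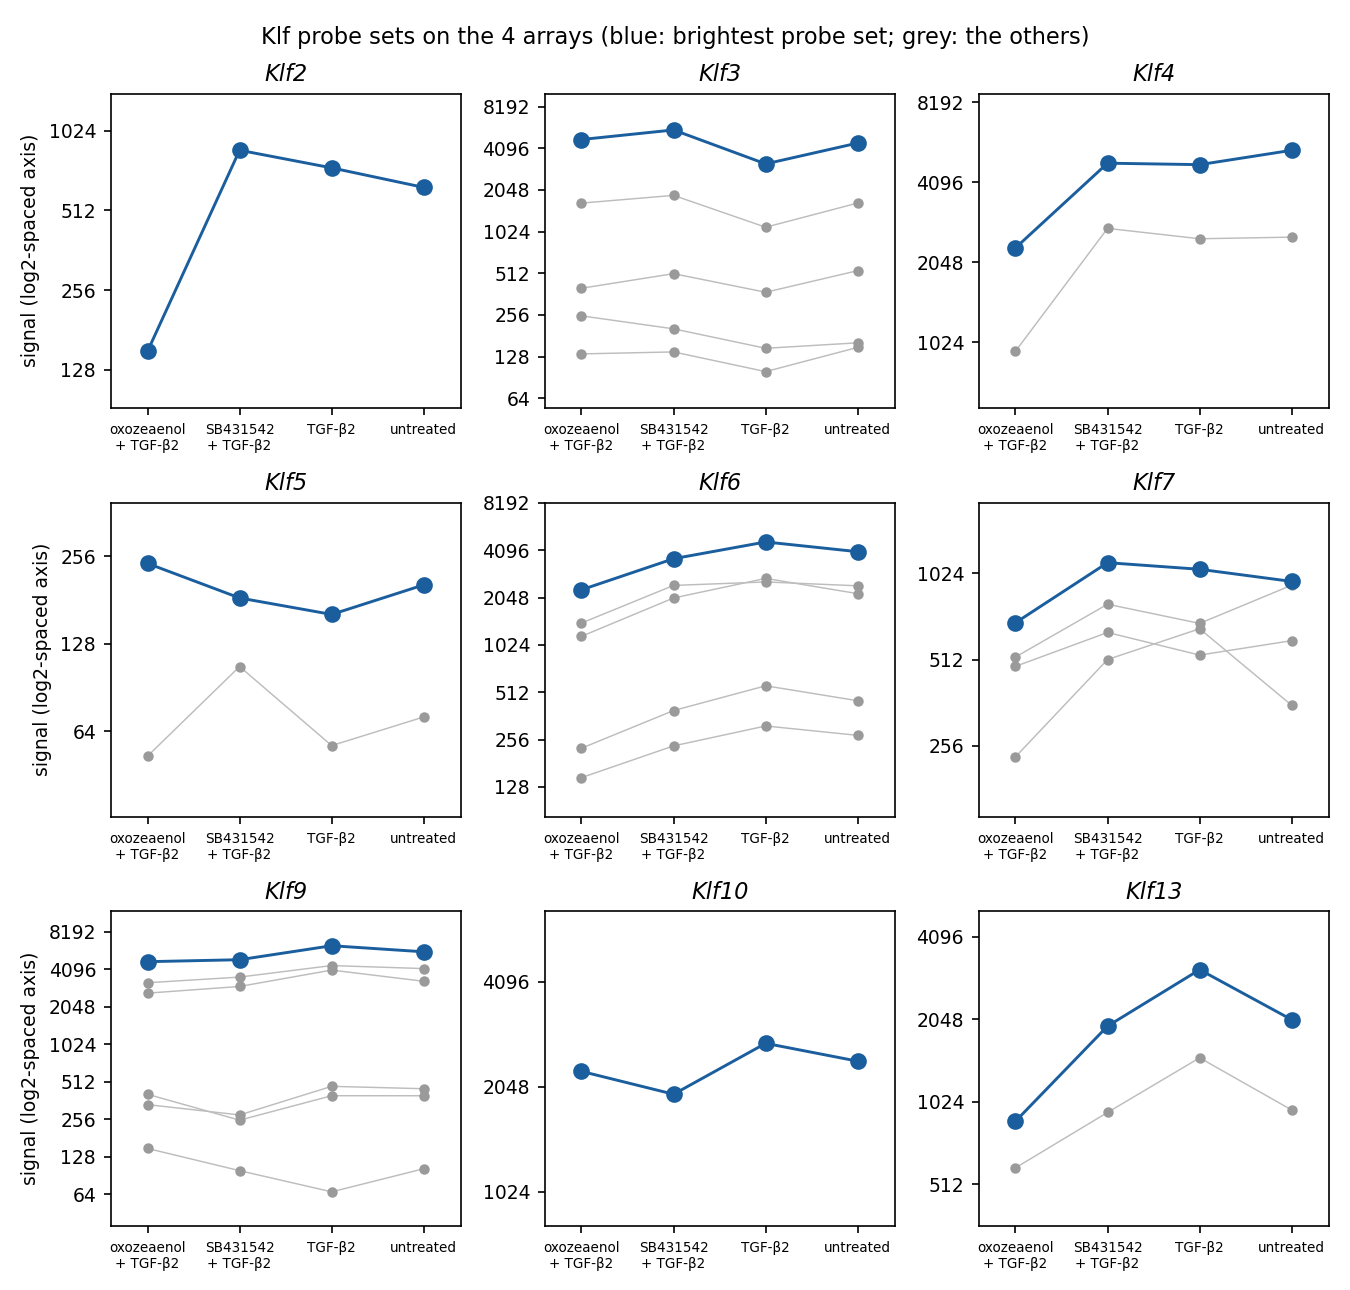
Signal of every Klf probe set past the filter on the 4 arrays, 1 panel a gene, with a log2-spaced vertical axis that differs between panels. Blue points are the brightest probe set and grey points the others, and lines join the values of 1 probe set; the oxozeaenol array is the lowest for Klf2 (150), Klf4 (2317), Klf6 (2294) and Klf13 (869), while TGF-beta2 alone is the lowest for Klf3 (3162).

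Klf3, the CtBP-recruiting repressor studied mostly in fat and blood cells, had a different order of arrays. Its brightest probe set read 4744 with oxozeaenol, 5562 with SB431542, 3162 with TGF-beta2 alone and 4474 untreated. TGF-beta2 alone was the low array, and on this probe set both inhibitor arrays lay above the untreated one. The gene was 1.41-fold lower with TGF-beta2 than untreated, 1.75-fold higher with SB431542 than with TGF-beta2 alone and 1.5-fold higher with oxozeaenol than with TGF-beta2 alone. These comparisons share the TGF-beta2 array. All 5 probe sets past the filter, from 5 sequence records, were lower with TGF-beta2 than untreated (−0.57 to −0.12) and higher with SB431542 (0.40 to 0.81) and with oxozeaenol (0.09 to 0.70) than with TGF-beta2 alone. None of the 5 reached 2-fold in any of these comparisons. The 2 other Klf3 probe sets read 54.3 to 74.6 and 8.57 to 45.9 and did not pass the filter. The SB431542 difference of 0.81 placed Klf3 at rank 152 from the highest of 11744 genes.

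Among the Sin3A-binding genes, Klf13, a factor known for driving the chemokine gene Ccl5 in T cells, differed most. It read 869 with oxozeaenol, 1933 with SB431542, 3105 with TGF-beta2 alone and 2039 untreated. A second probe set, from another sequence record, read 588, 936, 1481 and 955 in the same order. On both, TGF-beta2 alone was the high array, SB431542 lay near the untreated level and oxozeaenol lay below it. With TGF-beta2 over untreated the 2 probe sets gave 0.60 and 0.62 in log2, a 1.52-fold higher level on the brighter, which placed Klf13 at rank 331 from the highest. With SB431542 over TGF-beta2 alone they gave −0.68 and −0.65. With oxozeaenol over TGF-beta2 alone the brighter was 3.51-fold lower, rank 70 from the lowest, and the log2 differences were −1.81 and −1.30. Over untreated, oxozeaenol gave −1.21 on the brighter and −0.68 on the other, so the 2-fold call against untreated was not shared by both. The remaining Klf13 probe set read 5.42 to 22.5 and did not pass the filter.

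Klf10, the TGF-beta-inducible early gene, represses Smad7 in several cell types. It read 2268 with oxozeaenol, 1950 with SB431542, 2730 with TGF-beta2 alone and 2426 untreated on its only probe set. TGF-beta2 alone was the high array and SB431542 the low one, with a full span of 1.4-fold. At 120 minutes it was 1.12-fold higher with TGF-beta2 than untreated, a difference met or passed by 19.6% of all genes. With SB431542 it was 1.4-fold lower than with TGF-beta2 alone, a difference met or passed in that direction by 5.89% of all genes. Oxozeaenol over TGF-beta2 alone gave −0.27 in log2.

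Klf9, a target of glucocorticoid and thyroid hormone receptors, read 4724 with oxozeaenol, 4899 with SB431542, 6345 with TGF-beta2 alone and 5671 untreated on the brightest of 6 probe sets past the filter. Both inhibitor arrays lay below the other 2, and the whole span was 1.34-fold. The 3 brightest probe sets shared this order, at −0.46 and −0.61 in log2 for the next 2 with oxozeaenol over TGF-beta2 alone. The dimmest of the 6 ran the other way, with 149 with oxozeaenol, 99.0 with SB431542, 66.9 with TGF-beta2 alone and 103 untreated. A further probe set was also highest with oxozeaenol, at 407, against 252 with SB431542, 396 with TGF-beta2 alone and 396 untreated. With oxozeaenol over TGF-beta2 alone 4 of the 6 were lower and 2 higher, and over SB431542 3 were lower and 3 higher. Against the untreated array, all 6 were lower with SB431542, by −0.66 to −0.04 in log2. A seventh probe set, at 39.6 to 73.4, did not pass the filter.

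Klf15, a regulator of amino acid and glucose metabolism in liver and muscle that responds to glucocorticoids, read 6.18 with oxozeaenol, 5.29 with SB431542, 2.39 with TGF-beta2 alone and 3.70 untreated. All 4 values lay far under the filter level of 66.1, so no difference is given for it. The files hold no detection calls, and whether Klf15 RNA was present at a low level cannot be read from them.

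**Figure D2:**
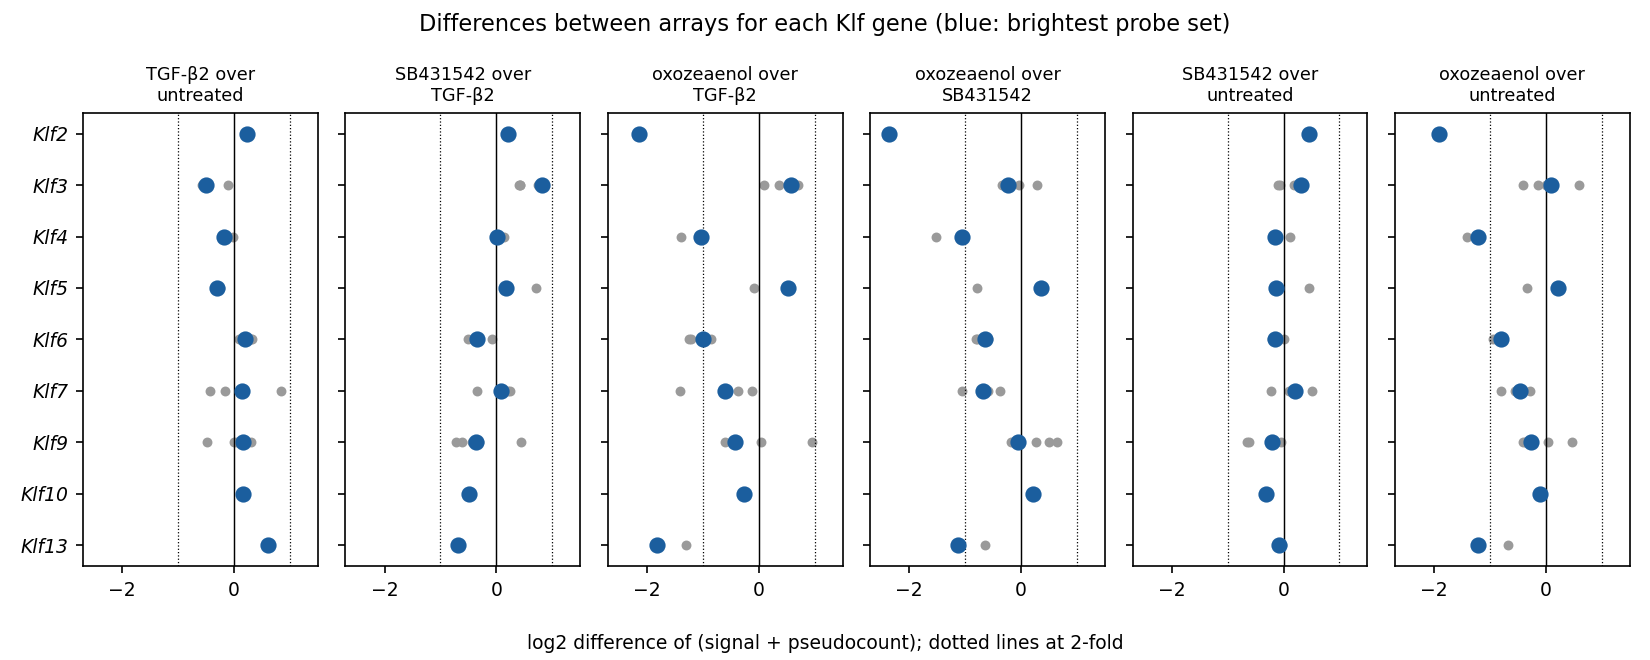
Log2 difference of each Klf gene in the 6 comparisons between arrays, with dotted lines at 2-fold. Blue points are the brightest probe set and grey points the gene's other probe sets past the filter; points beyond the left dotted line occur in the 3 panels with oxozeaenol as the first array, and none lies beyond the right one.

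Set against each other, the inhibitor arrays differed most at Klf2. With oxozeaenol over SB431542, both with TGF-beta2, Klf2 was 5.14-fold lower, rank 19 from the lowest of all genes, Klf13 was 2.19-fold lower and Klf4 2.08-fold lower. That is 3 of 9 genes at least 2-fold lower and 0 higher, where 1.3% of all genes were lower and 1.51% higher. Klf6 and Klf7 were at −0.65 and −0.68 in log2. Klf9, Klf10, Klf3 and Klf5 lay between −0.23 and 0.36. For Klf13 the mean of its 2 probe sets gave −0.89, under the 2-fold rule.

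Against the untreated array, the oxozeaenol array was lower at 7 of the 9 genes and the SB431542 array at 6 of the 9, where 46.7% and 51% of all genes were lower. The second count is near that background. With oxozeaenol, Klf2, Klf4 and Klf13 were at least 2-fold lower and 0 were higher, where 1.51% of all genes were lower and 1.49% higher (1.9% and 1.17% after median centring). Klf6 was 1.74-fold lower. With SB431542, 0 of the 9 were 2-fold higher or lower, where 0.468% of all genes were higher and 0.383% lower (0.332% and 0.579% after median centring), and the largest difference was the 1.37-fold higher level of Klf2. Klf2, Klf4, Klf6, Klf7, Klf9 and Klf13 had their lowest signal of the 4 arrays with oxozeaenol. That is 6 of 9 genes, where 25.8% of all genes had their lowest signal on that array. For the 28 probe sets, 9 were at least 2-fold lower with oxozeaenol than with TGF-beta2 alone, where 1.87% of 20064 probe sets were. Probe sets of 1 gene read the same RNA and are not independent.

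**Figure D3:**
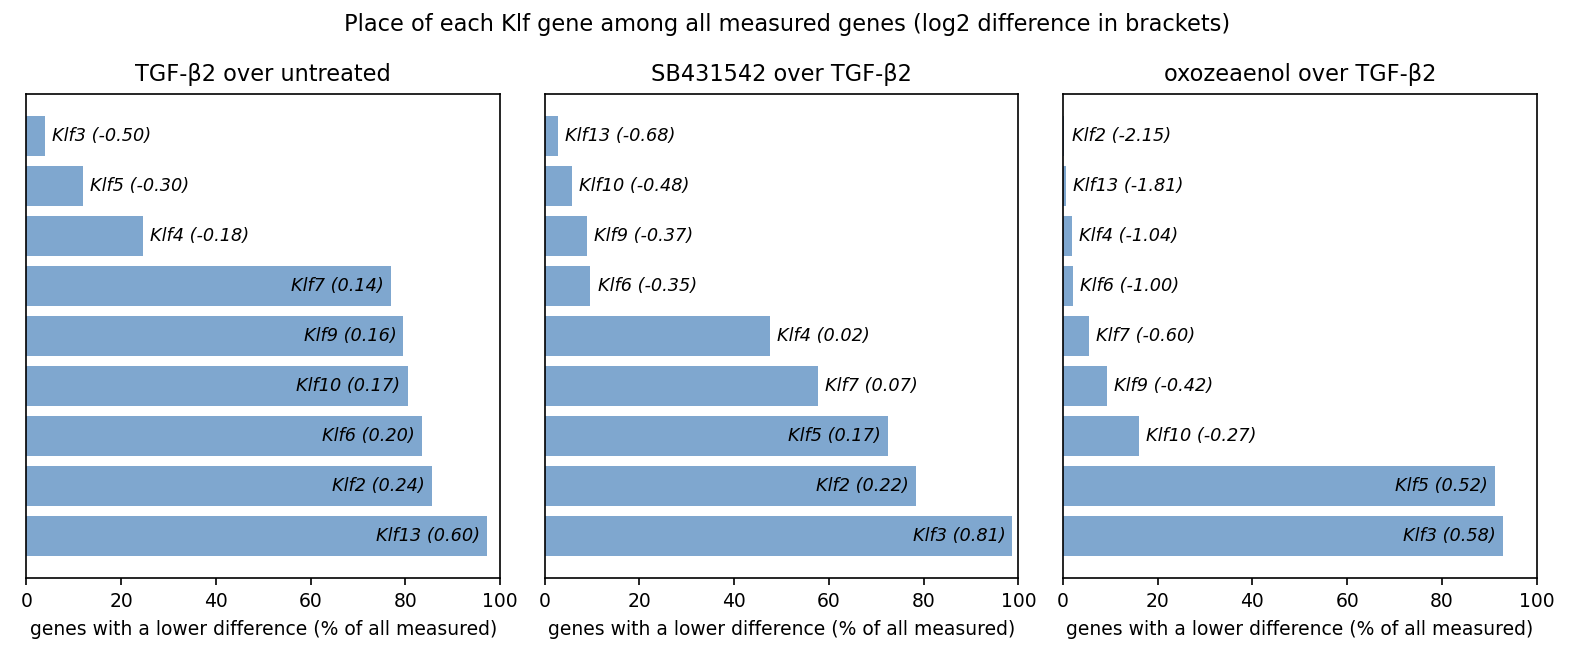
Share of all 11744 measured genes with a lower log2 difference than each Klf gene (horizontal axis, percent), for TGF-beta2 over untreated, SB431542 over TGF-beta2 and oxozeaenol over TGF-beta2; the log2 difference stands in brackets. In the oxozeaenol panel 7 of the 9 genes lie at the low end, from Klf2 (−2.15) to Klf10 (−0.27), and Klf5 (0.52) and Klf3 (0.58) at the high end.

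The rest of the family was described from a list of 16 further Klf and Sp genes, of which 13 were in the annotation and 10 passed the filter. Sp factors bind the same GC-rich sequences with related zinc fingers. With oxozeaenol over TGF-beta2 alone, 1 of the 10 was at least 2-fold lower and 0 were higher, and the median was 0.11. Among all genes 2.17% were lower and 1.82% higher. Klf11, another Sin3A-binding gene of the TGF-beta-inducible type, read 593 with oxozeaenol, 273 with SB431542, 296 with TGF-beta2 alone and 289 untreated. The oxozeaenol array was the high one, and the log2 difference from TGF-beta2 alone was 0.95, the opposite direction to Klf13 of the same branch. Klf14 was the lower gene. It read 87.4 with oxozeaenol, 100 with SB431542, 234 with TGF-beta2 alone and 116 untreated, which is high on 1 array at signals close to the filter level. Klf16 read 576 with oxozeaenol, 862 with SB431542, 828 with TGF-beta2 alone and 982 untreated. Sp1, expressed in nearly all cells, lay between 2527 and 2833 on all arrays, with oxozeaenol the lowest. Sp3 read 1836 with oxozeaenol, 1427 with SB431542, 1064 with TGF-beta2 alone and 1147 untreated. With TGF-beta2 over untreated 0 of the 10 were 2-fold higher or lower, where 0.673% and 0.366% of all genes were. With SB431542 over TGF-beta2 alone Klf14 (−1.07) and Sp6 (−1.41) were at least 2-fold lower, where 1.18% of all genes were. Sp6 read 23.3 on the SB431542 array, under the filter level, and 95.3 to 97.8 on the others. With oxozeaenol over SB431542, Klf11 (1.06) and Sp6 (1.39) were at least 2-fold higher and 0 genes of the list lower. Of all genes, 1.51% were higher and 1.3% lower. Klf12 (84.0 to 149), Klf17 (58.0 to 81.0), Sp4 (59.2 to 135) and Sp7 (508 to 830), the bone-forming factor osterix, were within 2-fold in all comparisons between arrays. For Sp4 this rests on the pseudocount, with −0.96 in log2 for SB431542 over untreated and −0.86 for TGF-beta2 over untreated. By signal alone, Sp4 was more than 2-fold lower with SB431542 (59.2) and with TGF-beta2 alone (64.9) than untreated (135). Klf1, Sp5 and Sp8 did not pass the filter, and Klf8, Sp2 and Sp9 were not analysed here.

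Partners that act on Klf proteins differed less. Of 17 listed cofactors and turnover genes, 16 were measured. Their median with oxozeaenol over TGF-beta2 alone was 0.06, and 15 stayed under a 2-fold difference. The exception was Smurf1, a ubiquitin ligase, at 375 with oxozeaenol, 543 with SB431542, 909 with TGF-beta2 alone and 487 untreated. Sin3a read 536, 443, 467 and 458 in the same order of arrays. Ctbp1, which Klf3 recruits, lay between 6484 and 7125, and Ctbp2 was at −0.83 in log2 with oxozeaenol over TGF-beta2 alone. All 7 genes of the kinase route through Erk5 to the Mef2 factors, which induces Klf2 and Klf4 in endothelium, were within 2-fold in every comparison between arrays. Mef2c read 534 with oxozeaenol, 294 with SB431542, 283 with TGF-beta2 alone and 427 untreated. The brighter Mef2a read 1470, 1670, 2243 and 1907 in the same order. With oxozeaenol over TGF-beta2 alone Mef2c was at 0.87 in log2 and Mef2a at −0.60, the highest and lowest of the 7. The median was −0.12, so the list did not have 1 direction. These are transcript levels and say nothing of kinase activity.

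Genes reported as Klf targets in other settings did not move as 1 group. Of 22 measured, 3 were at least 2-fold lower with oxozeaenol than with TGF-beta2 alone and 2 at least 2-fold higher. The other 17 lay under 2-fold, and the median was −0.07. Among all genes, 2.17% were at least 2-fold lower and 1.82% at least 2-fold higher in that comparison. The lower ones were Plau, the urokinase gene reported downstream of Klf6 (−1.64), the growth factor gene Pdgfa (−1.09) and Smad7 (−1.03). Pdgfa (−0.86) and Smad7 (−0.91) were nearly as low with SB431542 over TGF-beta2 alone, where Plau was at −0.16. The higher ones were Cdkn1c, a cyclin-dependent kinase inhibitor gene (1.26), and Pparg, the fat cell regulator that Klf factors act on during fat cell formation (1.31). Cdkn1a read 9946 with oxozeaenol, 8285 with SB431542, 8949 with TGF-beta2 alone and 8421 untreated. The second Plau probe set gave 155 with oxozeaenol and 166 with TGF-beta2 alone, so its probe sets differed. The dimmer probe sets of Pdgfa (−0.95) and Smad7 (−0.48) were also under 2-fold with oxozeaenol over TGF-beta2 alone. That of Smad7 was lower with TGF-beta2 than untreated (−0.59), where the brighter was higher (0.35). With TGF-beta2 over untreated all 22 were within 2-fold. With SB431542 over TGF-beta2 alone Pparg was at least 2-fold higher, where 0.613% of all genes were. Pparg read 303 with oxozeaenol, 324 with SB431542, 109 with TGF-beta2 alone and 209 untreated, so TGF-beta2 alone was its low array. Of 11 measured glucocorticoid-responsive genes, the class to which Klf9 and Klf15 belong, 8 were within 2-fold with oxozeaenol over TGF-beta2 alone. Errfi1 (−3.27) and Dusp1 (−1.41), which also respond to MAP kinase signalling, were lower and Cdkn1c was higher. The shares of all genes were again 2.17% lower and 1.82% higher. With SB431542 over TGF-beta2 alone Errfi1 was lower (−1.17), where 1.18% of all genes were at least 2-fold lower. Fkbp5, a chaperone gene of this list, was at −0.97 with oxozeaenol and at −0.93 with SB431542, each over TGF-beta2 alone. It was at 0.83 with TGF-beta2 over untreated, and the inhibitor arrays lay near untreated, at −0.14 with oxozeaenol and −0.10 with SB431542. The medians of the 11 genes over TGF-beta2 alone were 0.11 with oxozeaenol and 0.25 with SB431542, so Fkbp5 did not stand for the list.

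**Figure D4:**
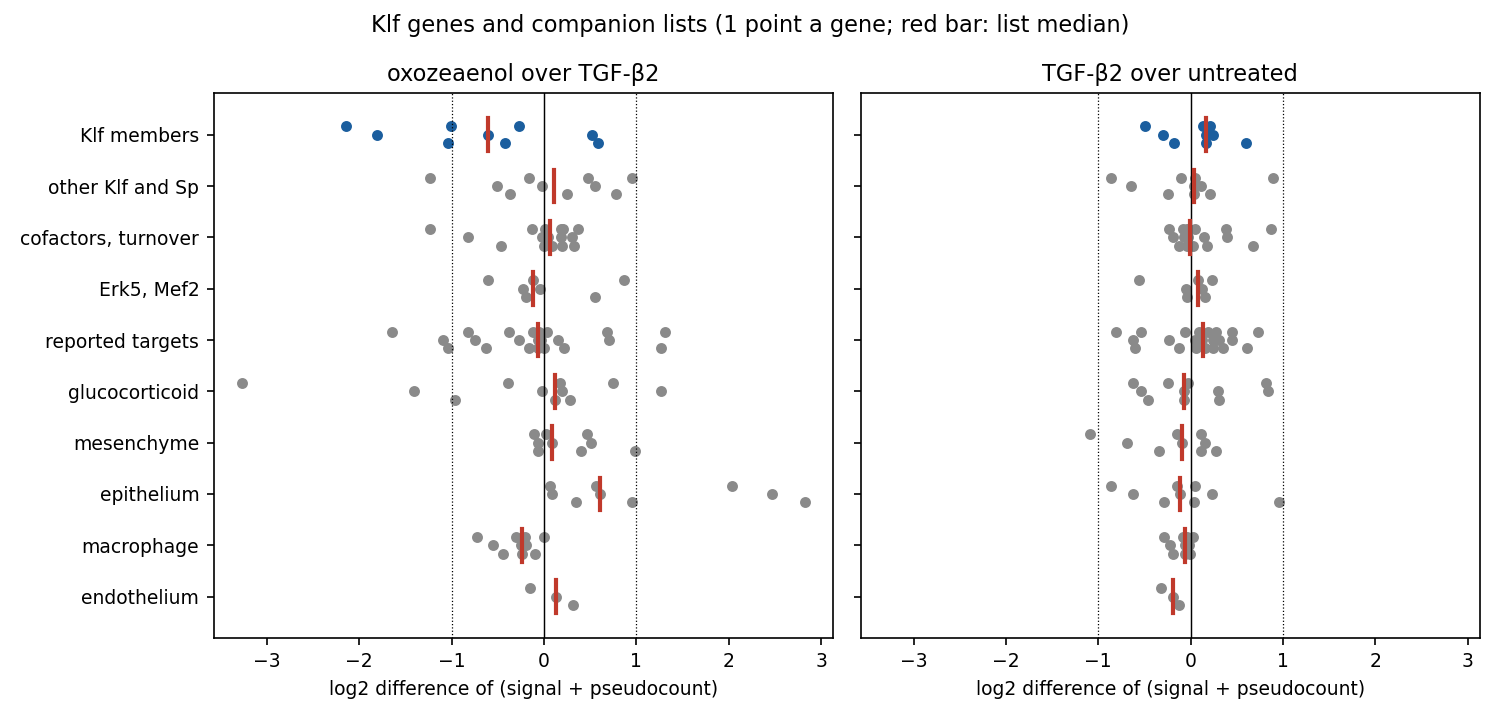
Log2 differences with oxozeaenol over TGF-beta2 (left) and TGF-beta2 over untreated (right), 1 point a gene, for the 9 Klf genes (blue) and the companion and marker lists (grey), with red bars at list medians and dotted lines at 2-fold. On the left the Klf median is −0.60 and that of the other Klf and Sp genes 0.11; on the right no Klf gene passes 2-fold.

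Markers of the labelled cell type and of other cell types were read on the same arrays, and some differed with oxozeaenol. Of 10 mesenchymal markers 9 passed the filter, all but Osr2, which read 6.75 to 30.4. The summed signal of the 10 was 91165 with oxozeaenol, 97588 with SB431542, 87053 with TGF-beta2 alone and 84976 untreated. The brightest Pdgfra probe set was lower with TGF-beta2 over untreated (−1.09) and higher with SB431542 over TGF-beta2 alone (1.16). The other 2 past the filter gave 0.07 and −0.06 for TGF-beta2 and 0.05 and −0.07 for SB431542, so no direction is given for the gene. All 10 macrophage markers passed the filter and summed to 63366, 73448, 73187 and 76795 in the same order. All 10 were within 2-fold with oxozeaenol over TGF-beta2 alone, with a median of −0.24, and over untreated Cd14 was lower (−1.02) and the median was −0.32. Macrophages express Klf2, Klf4 and Klf6, and the part of macrophage RNA in the lower values of these genes was not tested.

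Epithelial markers went the other way. Of 12, 9 passed the filter and the 12 together summed to 6884 with oxozeaenol, 2296 with SB431542, 2234 with TGF-beta2 alone and 2372 untreated. Krt5, Krt14 and Krt19 were at least 2-fold higher with oxozeaenol than with TGF-beta2 alone, and 6 of the 9 were within 2-fold. Of all genes, 1.82% were at least 2-fold higher in that comparison. Cdh1, the E-cadherin gene, was higher with oxozeaenol than with SB431542 (1.19). Krt15, Trp63 and Esrp1 did not pass the filter on their mean, although Krt15 read 524 with oxozeaenol. Klf4 and Klf5 are epithelial regulators, and the part of epithelial RNA in their values was not tested. Of 10 endothelial markers 3 passed the filter, while Pecam1, Cdh5, Tek, Tie1, Emcn, Sox17 and Esam did not, and the list summed to 722, 899, 629 and 734 in the same order of arrays. No marker in these lists read exactly 0.

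For the 4 genes that spanned at least 2-fold over the arrays, the genes with the most similar profile were found by the distance between their log2 differences from the untreated array, over 4 arrays. So few arrays allow many near matches. For Klf2 they were Arhgap22 (distance 0.19), the cytokine gene Tnf (0.28) and the chromatin protein gene Hmga2 (0.37), with 7 of 11743 genes within 0.5. Arhgap22 and Tnf read under 12 on the oxozeaenol array, below the filter level. Hmga2 read 1263 with oxozeaenol, 5679 with SB431542, 5597 with TGF-beta2 alone and 5197 untreated. For Klf13 they were the hexokinase gene Hk2 (0.07), the potassium channel gene Kcnn4 (0.13) and Cttnbp2nl (0.17), with 50 genes within 0.5. Hk2 read 984 with oxozeaenol, 2039 with SB431542, 3347 with TGF-beta2 alone and 2222 untreated, the same order as Klf13. For Klf4 they were the oncostatin M receptor gene Osmr (0.12), Tsr1 (0.13) and Grwd1 (0.16), with 135 genes within 0.5. For Klf6, whose profile was the flattest of the 4, they were Taf4b (0.09), Stk40 (0.10) and Ptk2b (0.11), with 562 genes within 0.5.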

How the data were processed

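The deposited values are probe set intensities on a linear scale, 1 per array for 45101 probe sets. The submitters' processing notes name GCOS, a program of the array maker, with its version, summary algorithm and parameters not given in the sources used here. Intensities deposited by the authors have a mean of 500.0 on every array without the lowest and highest 2%, so arrays were scaled to a common level, which assumes equal average abundance. Amplification and biotin labelling started from 500 ng of total RNA, per the labels.

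Computed here (Python 3.11.15, pandas 2.3.3, numpy 2.4.6): 64 control probe sets were left out, and of the remaining 45037, 34945 have 1 gene symbol in the platform annotation, 932 several and 9160 none. A pseudocount of 21.7, the 25th percentile of all values, was added before log2. Probe sets were kept where their mean log2 value reached the median, a signal of 66.1, which left 20064 with 1 symbol and 11744 genes, each read by its brightest probe set. All 34 Klf probe sets matched RefSeq by gene ID. Array medians lay between 66.3 and 72.7, and correlations between arrays, across probe sets, between 0.975 and 0.982. With 1 array a group the number of arrays limits the precision, and no test was run; genes were counted at 2-fold. The counting was checked on simulated data.

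Named genes are all 10 members, other Klf and Sp genes, and companion list genes at least 2-fold apart. The 3 most similar profiles for members spanning 2-fold are named as well. Sin3a, Ctbp1, Ctbp2, Mef2a, Mef2c, Cdkn1a and Fkbp5 (all under 2-fold) were chosen as examples after their values were seen. The members and lists were chosen with earlier results of these data known.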

Additional observations from a re-analysis of the deposited data

Results flagged for a closer look

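For Klf2, Klf4 and Klf7 the inhibitor arrays lay on opposite sides of TGF-beta2 alone, by the brightest probe set. For Klf4 and Klf7 the SB431542 array was almost level with TGF-beta2 alone, at 1.01-fold and 1.05-fold higher. Klf2 was at −2.15 in log2 with oxozeaenol over TGF-beta2 alone and at 0.22 with SB431542 over TGF-beta2 alone, a difference between the inhibitor arrays of −2.36. Klf4 was at −1.04 with oxozeaenol and 0.02 with SB431542, a difference of −1.05, and its SB431542 value changed sign under 2 of 9 settings. Klf7 was at −0.60 with oxozeaenol and 0.07 with SB431542, a difference of −0.68, although 1 of its 4 probe sets was lower with SB431542 too (−0.34). With 1 array a group none of these differences was tested.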

How the results depend on the processing

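Results were recomputed under 8 other settings (2 other pseudocounts, no filter, a stricter filter, quantile normalization, median centring, the mean of a gene's probe sets, and probe sets with plain names only) and 1 chosen after the data were seen, a 1.5-fold rule. Under the 8, all counts of Klf genes at least 2-fold higher or lower stayed within 1.5 times of those reported. With the 1.5-fold rule, 1 gene was higher with TGF-beta2 over untreated (Klf13), 1 was higher (Klf3) and 1 lower (Klf13) with SB431542 over TGF-beta2, and 5 were lower with oxozeaenol over SB431542, in place of 0, 0, 0 and 3. At 1.5-fold, 3.01%, 3.64%, 3.94% and 4.44% of all genes were called in the same comparisons and directions. Klf2 kept at least 2-fold lower values with oxozeaenol over TGF-beta2 under all 9 settings (−2.26 to −1.88), as did Klf13 (−1.87 to −1.56) and Klf4 (−1.21 to −1.02). Klf6 fell short at −0.99 with the pseudocount at the median and at −0.99 with quantile normalization. The mean of its probe sets took Klf13 to −0.95 against untreated with oxozeaenol and to −0.89 over SB431542. Klf5 changed sign between settings in 4 comparisons, where its probe sets differ. Among all genes, 255 were lower and 214 higher with oxozeaenol over TGF-beta2, and 511 and 588 without the filter, which tests 18193 genes; with the pseudocount at the median 196 and 135 were. Median centring moved the all-gene median for SB431542 over untreated to −0.11. No paired analysis was possible because each group holds 1 array. Dim probe sets near the filter level of 66.1 limit what can be said of Klf5, Klf14, Sp6 and Klf15.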
